A study of Homo sapiens with 25 samples.

Results

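The mRNAs of the proteasome were followed in RNA immunoprecipitation sequencing (RIP-seq) of IGF2BP1, an RNA-binding protein that was captured from cell lysates together with the transcripts attached to it. The members were all protein-coding genes whose symbol starts with PSMA, PSMB, PSMC, PSMD, PSME, PSMF or PSMG followed by a digit. This rule selected 50 of 20044 protein-coding genes by symbol. The rule, and the gene lists and motifs used below, were chosen with earlier results of these data known. They comprised 8 alpha and 7 beta subunits of the 20S core, 4 interferon-induced or thymic beta subunits, 6 ATPases and 11 other subunits of the 19S regulatory particle, 3 chaperones of 19S assembly, 4 chaperones of 20S assembly, 4 genes of proteasome activators and 1 inhibitor. The symbol pattern also took in PSMC3IP, a meiotic recombination factor, and PSME3IP1, a partner protein of an activator, and these 2 genes encode no proteasome protein. Of the 50 members, 40 passed the filter on low values and were tested, among 8734 genes tested in all.

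The proteasome degrades proteins that carry ubiquitin chains. Its 20S core is a barrel of stacked alpha and beta rings, in which PSMB5, PSMB6 and PSMB7 hold the proteolytic sites, and the 19S particle on its ends recognizes the chain, removes it with the deubiquitinase PSMD14 and unfolds the substrate with a ring of ATPases. PSME1 to PSME4 form alternative activators that open the core, and PSMG proteins and PSMD5, PSMD9 and PSMD10 help to put the particles together. Proteasome genes are known to be induced together by NFE2L1 when proteolysis is limiting, and arsenite, which damages thiols of proteins, raises the load of misfolded protein.

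The cells were HCT116, a human colorectal carcinoma line carrying Tet-OsTIR1-PURO, in which IGF2BP2 and IGF2BP3 had been knocked out and which expressed mCherry-IGF2BP1 as the wild-type, S181E, Y396E or RQ protein. S181E and Y396E place a glutamate in the disordered linkers to mimic phosphorylation, and RQ replaces arginines of linker 1 by glutamine. The knockout lines came from single cells, and the mCherry fusions were introduced with a lentivirus and sorted as populations within a narrow gate of mCherry. Each line was kept with PBS as the control or given 500 µM sodium arsenite for 2 h, with 3 libraries per line and treatment except 2 for RQ in arsenite (replicates 1 and 2). Dishes were plated and grown independently. Parental HCT116 cells, whose label names no fusion and no knockout, gave 1 library per treatment, which served as the background of the beads and entered no test. RIP-seq levels are given as CPM, the usual depth-scaled count over protein-coding genes with TMM factors, and were not divided by RNA levels, so more binding of a transcript and more copies of it cannot be told apart, and neither can fewer cells and less RNA per cell.

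The 23 mCherry libraries held between 22246381 and 60273548 counts, the parental arsenite library 18942497 and the parental control library 1238013, in which 1 count was worth 0.675 CPM. IGF2BP1 was at 37.2 to 123 CPM in the mCherry libraries and at 0 in the parental libraries. Its means with wild-type, S181E, Y396E and RQ were 66.4, 66.3, 93.0 and 111 CPM in control. In arsenite they were 40.1, 41.4, 52.1 and 80.6 CPM. Transcripts of the knocked-out genes were still counted, at 131 to 294 CPM for IGF2BP2 and 147 to 429 CPM for IGF2BP3. These levels say nothing about the proteins. Of 10 epithelial marker genes 6 were above 1 CPM in every mCherry library, and CDX1 was at 0 in all of them. Of 9 markers of blood, stromal and endothelial cells 7 stayed under 1 CPM in every mCherry library, and the sum of these 9 was 1.58 to 14.8 CPM, with COL1A1 over 1 CPM in every library.

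Of the members, 10 were too low to be tested, for different reasons in the files. The interferon-induced subunits PSMB8, PSMB9 and PSMB10, which replace the constitutive proteolytic subunits in immune tissue, reached at most 0.804, 3.67 and 1.44 CPM in any mCherry library, and the thymic PSMB11 reached 0.561 CPM. PSMA8, the testis form of an alpha subunit, had no count in any mCherry library. PSMA2 and PSMA6, subunits that every 20S core contains, reached only 1.42 and 3.17 CPM. In the annotation used for counting, 94.7% of the exon bases of PSMA2 and 63.9% of those of PSMA6 lie in another gene on the same strand, and reads that overlap 2 genes were left out of the counts. For PSMA1, which was tested, 41.4% of the exon bases are shared in this way. PSMB10 and PSMD9 share 38.3% and 14.2% of theirs, and PSMB9, PSMC2 and PSME2 share smaller parts. The levels of all these genes can thus be too low by an unknown amount. The filter asked for over 10 CPM in more than 11.5 of the 23 mCherry libraries. PSMD9 and PSMG4 came near it, with medians of 8.80 and 9.47 CPM and 9 libraries each over 10 CPM. PSMC3IP was farther from it, with a median of 6.27 CPM and 2 such libraries. The lowest member that passed was PSMC6 with a median of 11 CPM.

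Among the tested members the level per kilobase of exon spanned a wide range. In wild-type control libraries PSMB5, the chymotrypsin-like subunit, had 153 ± 4.83 CPM (SD, n = 3), or 123 CPM per kilobase, and PSME3, the nuclear activator, had 480 ± 31.2 CPM (SD, n = 3), or 107 CPM per kilobase. PSMB7, PSMB4 and PSMA7 followed with 72.3, 64.4 and 44.5 CPM per kilobase, and the ATPases PSMC1 and PSMC6 were lowest with 3.25 and 3.01. All 7 constitutive 20S beta subunits thus stood among the 9 highest members. Exons of all annotated isoforms enter the length, so a gene with a long rarely used exon is placed too low.

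Most tested members stood lower in scaled level than in the parental library, which served as the bead background. These ratios compare shares of a library after TMM scaling and not amounts of RNA captured. A ratio below 1 thus does not say that beads alone caught as much of a transcript. In arsenite, 28 of the 40 tested members (70.0%) had a lower mean CPM in the wild-type libraries than in the parental library, against 43.2% of the 8700 tested genes with a parental value, and the median ratio was 0.544 for members and 1.14 for all genes. PSMD5 alone passed the 4-fold threshold of the study, at 7.23-fold, where 8.83% of all genes measured in the parental library passed it. It was followed by the activator PSME4 at 3.41-fold, PSME3 at 3.27-fold, PSMG2 at 3.21-fold and PSMD8 at 2.62-fold. The proteolytic subunits PSMB5, PSMB6 and PSMB7 stood at 1.05-fold, 0.414-fold and 0.555-fold, and PSMD14 at 0.467-fold. The other lines gave a like picture, with 26 to 28 members below the parental level and PSMD5 as the 1 member past 4-fold.

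The control background was shallower. Of the 40 tested members 7 had no count in the parental control library, and of the other 33 there were 22 below the parental level in wild-type, 66.7% against 48.6% of all genes. With a parental count of 0 taken as passing, 9 members passed 4-fold, where 49.0% of all tested genes passed by this rule. Of all tested genes 40.9% had no parental control count. With parental counts under 3 set to a floor of 3 counts, 9 members passed as well, and the share of all genes was not computed. Among them PSMC4 was at least 25.5-fold and PSMA3 at least 13.2-fold above the floor, while in arsenite they stood at 1.01-fold and 0.293-fold. PSMB1 had 1 parental control count, which gave a ratio of 47.6 with a 95% exact Poisson interval of 8.55 to 1882 that covers counting error only. PSMB2 was the remaining 1 of the 9 with more counts, at 5.58-fold over 39 parental counts. With the deeper parental arsenite library as background for the control libraries, 0 of the 40 members passed 4-fold. The depth and the treatment of the background both differ between these settings and cannot be told apart. No test could be made against 1 parental library per treatment.

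Summed over the 50 members, the level was 2376 to 2561 CPM in wild-type control libraries, 2904 to 3223 CPM with S181E, 2908 to 3191 CPM with Y396E and 2356 to 2817 CPM with RQ. In arsenite the sums were 3662 to 3766 CPM with wild-type, 4353 to 4398 CPM with S181E, 4287 to 4375 CPM with Y396E and 3522 to 3726 CPM with RQ. The libraries of S181E and Y396E lay above all wild-type libraries in each treatment, the ranges of RQ and wild-type overlapped, and every arsenite library of a line lay above its control libraries. The parental libraries were at 3087 CPM in control and 4364 CPM in arsenite.

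The comparison of each mutant with wild-type asked whether the linker changes altered the RNA that IGF2BP1 brings down. In arsenite, Y396E had higher levels of subunits of both particles and lower levels of 3 genes that are no part of the finished 26S particle. The test was edgeR's quasi-likelihood test over all 8734 genes, and calls required an adjusted p below 0.05 together with over 20% change. Of the 40 members 22 (55.0%) rose and 3 (7.5%) fell, where 13.1% of all tested genes rose and 19.4% fell. The median log2 fold change was 0.46 for members and 0.01 for all tested genes.

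The 3 members that fell with Y396E in arsenite were PSMD5, PSME4 and PSMG2. PSMD5, a chaperone that holds 19S intermediates, was at 237, 213 and 238 CPM in the wild-type libraries and at 129, 123 and 130 CPM with Y396E, while S181E gave 230, 188 and 221 CPM and RQ 180 and 169 CPM. Every Y396E library lay below every library of the other lines. Against wild-type such a separation downwards was found for 4 of the 40 members and 33.6% of all tested genes. The log2 fold change against wild-type was −0.82 ± 0.12 (SE, edgeR adjusted p = 2.6e-05).

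PSME4, the activator PA200, was at 294, 281 and 272 CPM with wild-type, 172, 153 and 178 CPM with Y396E, 275, 247 and 283 CPM with S181E and 223 and 188 CPM with RQ. Y396E was again below all the others, and RQ lay between. Its log2 fold change was −0.72 ± 0.11 (SE, edgeR adjusted p = 3e-05). PSMG2, a chaperone of alpha-ring assembly, was at 93.1, 74.8 and 77.6 CPM with wild-type and 53.2, 55.4 and 50.6 CPM with Y396E, a log2 fold change of −0.60 ± 0.12 (SE, edgeR adjusted p = 0.00066), and its S181E and RQ libraries overlapped the range of wild-type.

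**Figure D1:**
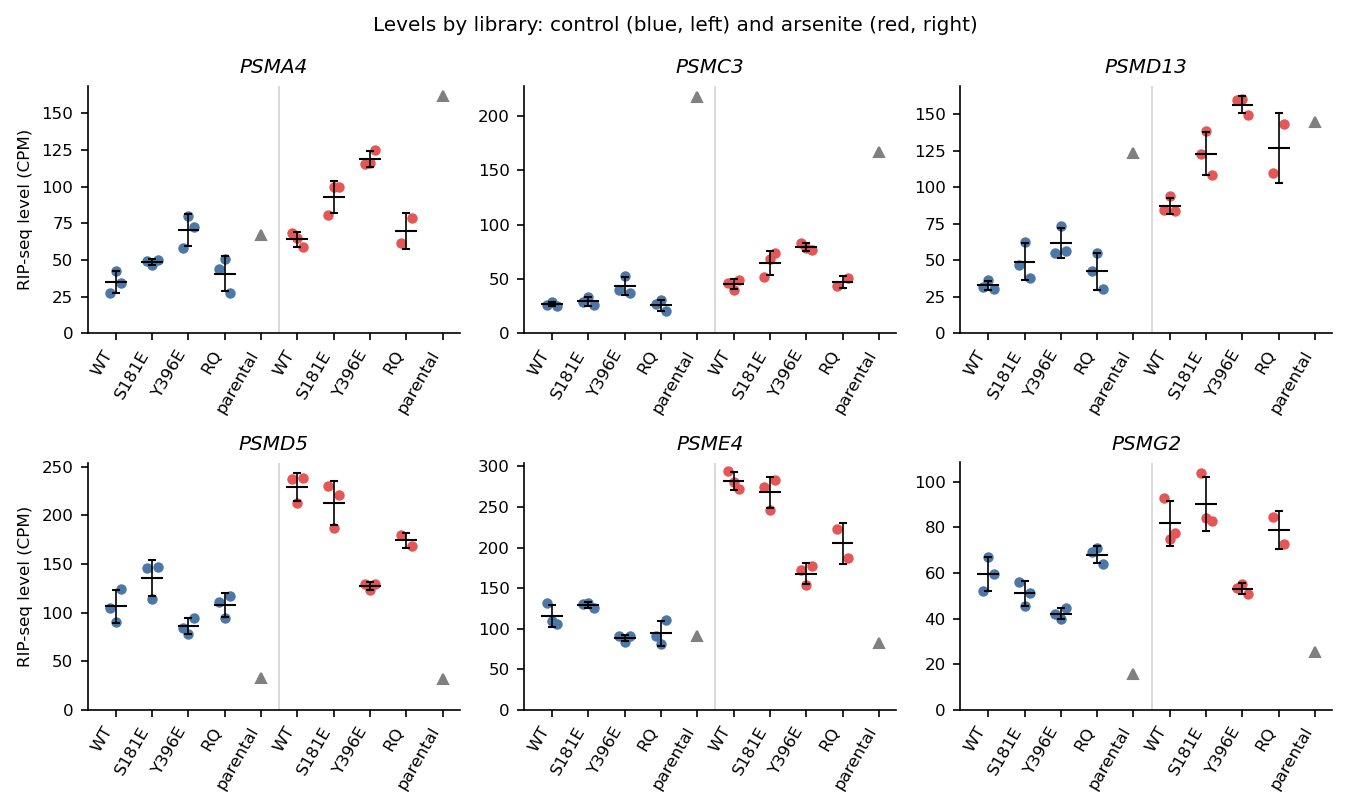
RIP-seq levels in CPM (vertical axes, from 0) of 6 members in every library of the 4 mCherry-IGF2BP1 lines, control in blue on the left and arsenite in red on the right; bars are means with SD and grey triangles the parental libraries. In arsenite Y396E has the highest PSMA4 and the lowest PSMD5, PSME4 and PSMG2 of the 4 lines, and all libraries of the 4 lines lie below the parental library for PSMA4 and PSMC3.

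Of the 22 members that rose with Y396E in arsenite, the alpha subunit PSMA4 moved most. It was at 68.5, 64.7 and 58.5 CPM with wild-type and at 115, 116 and 125 CPM with Y396E, a log2 fold change of 0.92 ± 0.17 (SE, edgeR adjusted p = 0.00028). The 19S subunit PSMD13 went from 84.4, 93.6 and 83.7 CPM to 160, 160 and 150 CPM, and the ATPase PSMC3 from 46.2, 40 and 49.0 CPM to 83.2, 78.6 and 76.3 CPM. None of the 3 genes overlapped between these groups. This held upwards for 30 of the 40 members, and for 28.5% of all tested genes. PSMD13 had a log2 fold change of 0.87 ± 0.18 and PSMC3 of 0.85 ± 0.15 (SE), followed by the alpha subunit PSMA3 with 0.83 ± 0.19, and the smallest rise that was called was that of PSMB5, 0.29 ± 0.10 (SE, edgeR adjusted p = 0.028).

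By role, all 6 ATPases rose, with log2 fold changes of 0.46 to 0.85, as did 9 of the 11 other 19S subunits, 4 of the 5 tested alpha subunits and 3 of the 7 beta subunits. PSMD14 rose from 63.0, 72.4 and 62.0 CPM to 89.9, 91.0 and 92.8 CPM, a log2 fold change of 0.50 ± 0.13 (SE, edgeR adjusted p = 0.0065). PSMB7 rose by 0.66 ± 0.19 (SE, edgeR adjusted p = 0.0097), while PSMB6, at 44.8 to 55.0 CPM with wild-type and 71.1 to 77.0 CPM with Y396E, did not pass the test. Among chaperones, activators and the inhibitor none of 10 rose and 3 fell. The inhibitor PSMF1 had a log2 fold change of −0.03.

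How many members were called depended on the scaling of the libraries. With TMM factors computed from the 1532 genes not above the parental level in either treatment, the median of all genes in this comparison moved to −0.26 and that of the members to 0.19, and 9 members rose and 5 fell, where 2.84% of all tested genes rose and 34.9% fell. With total counts the medians were 0.23 and 0.68, and 27 members rose and 3 fell, where 31.5% of all tested genes rose and 10.4% fell. PSMD5, PSME4 and PSMG2 fell and PSMA4, PSMD13, PSMC3 and PSMA3 rose under every alternative that was run. Leaving out wild-type replicate 1 left 13 members that rose and 3 that fell, where 8.14% of all tested genes rose and 14.7% fell.

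In control libraries the Y396E differences ran the same way in the 19S particle. Of the 40 members 18 (45.0%) rose and 2 (5.0%) fell by edgeR, where 16.2% of all tested genes rose and 12.7% fell, and the medians were 0.43 for members and 0.05 for all genes. PSMA4 was at 27.7, 42.4 and 34.0 CPM with wild-type and 58.1, 79.7 and 72.6 CPM with Y396E, a log2 fold change of 1.04 ± 0.18 (SE, edgeR adjusted p = 0.00013). PSMD14 was at 25.3, 39.8 and 36.1 CPM with wild-type and 52.6, 65.5 and 71.6 CPM with Y396E, a log2 fold change of 0.93 ± 0.14 (SE, edgeR adjusted p = 3.1e-05). In neither gene did the libraries of the groups overlap. This held upwards for 22 members and downwards for 2, where 19.9 and 16.4% of all tested genes were so separated.

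PSMD13 and the ATPase PSMC4 rose by 0.92 ± 0.18 and 0.91 ± 0.14 (SE), and the smallest rises called were those of PSME3, 0.28 ± 0.09, and the beta subunit PSMB2, 0.40 ± 0.09 (SE). Of the 17 subunits of the 19S particle 13 rose, against 3 of the 12 tested subunits of the 20S core. PSMB5, PSMB6 and PSMB7 had log2 fold changes of −0.08, 0.54 and 0.45 and did not pass the test.

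PSMG2 was at 52.1, 67.0 and 59.4 CPM with wild-type and 41.9, 40 and 44.7 CPM with Y396E in control, and fell by 0.48 ± 0.12 on the log2 scale (SE, edgeR adjusted p = 0.0054). PSME4 was at 131, 109 and 105 CPM with wild-type and 90.8, 84.0 and 90.8 CPM with Y396E, and fell by 0.37 ± 0.11 (SE, edgeR adjusted p = 0.016). PSMD5 had a log2 fold change of −0.29 and was not called in control. With total counts in place of TMM no member fell and 29 rose, where 5.55% of all tested genes fell and 42.0% rose. The 2 falls in control thus depend on the scaling. Leaving out Y396E replicate 2 left 11 that rose and 1 that fell, where 10.6% of all tested genes rose and 8.99% fell.

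**Figure D2:**
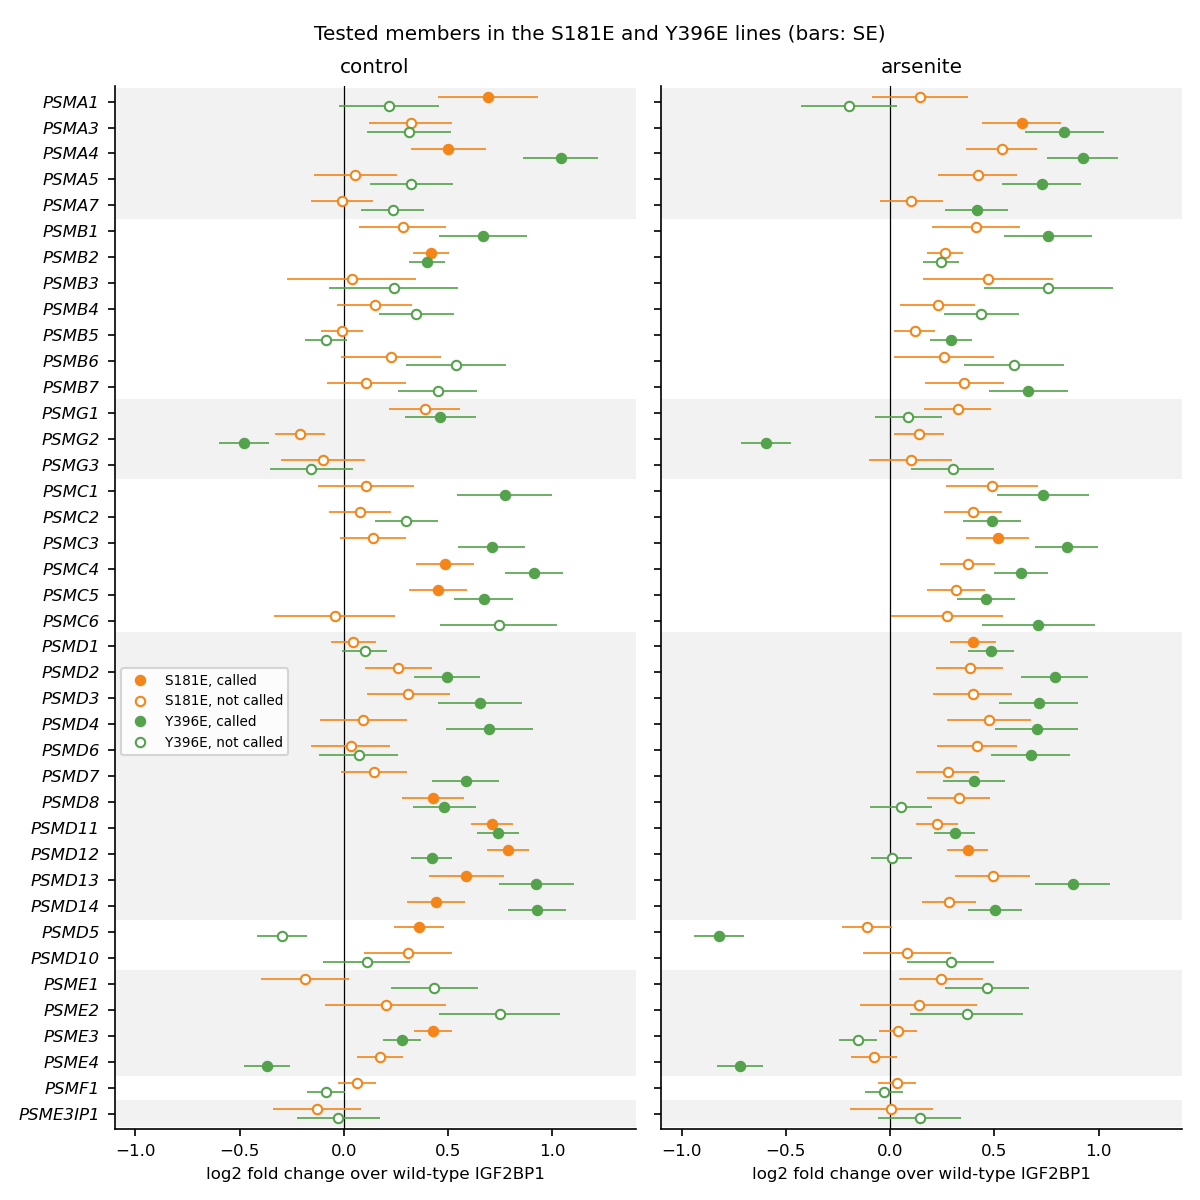
log2 fold changes (horizontal axes) of the 40 tested members for S181E (orange) and Y396E (green) over wild-type IGF2BP1, in control (left) and arsenite (right), with bars of 1 SE; filled points were called by edgeR and shading separates the role groups. Y396E lies to the right of 0 for most subunits in both treatments, whereas PSMG2 and PSME4 lie to the left in both and PSMD5 is the lowest member in arsenite.

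With S181E in control 12 of 40 members (30.0%) rose and none fell by edgeR, where 12.8% of all tested genes rose and 8.0% fell. The medians were 0.19 for members and 0.05 for all genes. The 19S subunit PSMD12 stood out, with 131, 126 and 134 CPM in wild-type and 229, 213 and 228 CPM in S181E, a log2 fold change of 0.79 ± 0.10 (SE, edgeR adjusted p = 7.6e-06). PSMD11, its neighbour in the 19S lid, followed with 0.71 ± 0.10 (SE, edgeR adjusted p = 3.6e-05), PSMA1 with 0.69 ± 0.24 and PSMD13 with 0.59 ± 0.18 (SE). PSMD11 and PSMD12 were the 2 members whose call held under every alternative that was run.

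The smallest rises with S181E in control were those of PSMD5 with 0.36, PSMB2 with 0.42, PSMD8 with 0.43 and PSME3 with 0.43. PSMD14 rose by 0.44 ± 0.14 (SE, edgeR adjusted p = 0.027), and PSME4, PSMB5, PSMB6 and PSMB7 did not pass the test. Fitting the S181E and wild-type control libraries alone left 2 members that rose, where 1.96% of all tested genes did. With the replicate number as a block in that fit 6 rose, where 6.41% of all tested genes did. Leaving out wild-type replicate 1 or 3 or S181E replicate 2 left 7 of the 40 that rose, and leaving out S181E replicate 1 left 6. With these libraries left out in turn, 9.93 to 13.4% of all tested genes rose.

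In arsenite 4 members (10.0%) rose with S181E and none fell, where 2.2% of all tested genes rose and 5.34% fell by edgeR, with medians of 0.30 for members and 0.01 for all genes. PSMA3 was at 32.9, 28.4 and 29.3 CPM with wild-type and 43.2, 50.9 and 46.6 CPM with S181E, a log2 fold change of 0.63 ± 0.19 (SE, edgeR adjusted p = 0.049). PSMC3 had 0.52 ± 0.15, the large 19S scaffold PSMD1 0.40 ± 0.11 and PSMD12 0.37 ± 0.10 (SE). In 29 of the 40 members all S181E libraries lay above all wild-type libraries, as for 18.6% of all tested genes.

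The number called in this comparison was the least stable of all. Same-numbered libraries of S181E and wild-type in arsenite deviated together. With the replicate number as a block 10 members rose and none fell, where 4.05% of all tested genes rose and 8.6% fell. Fitting these 6 libraries alone gave 24 that rose, with or without the block, where 11.4 and 9.74% of all tested genes rose. With TMM on genes not above the parental level none was called, where 0.756% of all tested genes rose and 5.87% fell, and 8 members had an unadjusted p under 0.05. Without wild-type replicate 1 or 2 none was called, without S181E replicate 2 or 3 there was 1, and without wild-type replicate 3 or S181E replicate 1 there were 2. All of these rose, and across these settings 1.01 to 1.36% of all tested genes rose and 3.05 to 4.1% fell.

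RQ left the members close to wild-type. In control PSMG1, a 20S assembly chaperone and the partner of PSMG2, rose, and PSMD1 fell (1 member, or 2.5%, in each direction), where 3.51% of all tested genes rose and 2.83% fell (6.34% in all) by edgeR. PSMD1 was at 44.9, 54.2 and 49.9 CPM with wild-type and 34.8, 30.7 and 30.1 CPM with RQ, a log2 fold change of −0.63 ± 0.11 (SE, edgeR adjusted p = 0.0015). PSMG1 was at 16.4, 19.5 and 12.4 CPM with wild-type and 22.9, 29.7 and 23.9 CPM with RQ, a log2 fold change of 0.66 ± 0.17 (SE, edgeR adjusted p = 0.021). Neither gene overlapped between the groups, which 2 members each showed upwards and downwards, against 8.62 and 6.55% of all tested genes. With total counts 3 members rose and 1 fell, where 8.75% of all tested genes rose and 1.91% fell. Without RQ replicate 2 or without wild-type replicate 3 only PSMD1 was called, where 1.36 and 2.23% of all tested genes fell and 2.14 and 2.89% rose. Without RQ replicate 3 there were 3 that rose and 2 that fell, where 3.96% of all tested genes rose and 3.21% fell.

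In arsenite none of the 40 members was called for RQ by edgeR and 3 had an unadjusted p under 0.05, where 0.286% of all tested genes rose and 0.218% fell. DESeq2's Wald test called 1 member, which fell, where 0.87% of all tested genes fell and 0.458% rose. Log2 fold changes of members ran from −0.45 to 0.55 with a median of 0.01, and this comparison rested on 2 RQ libraries.

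Y396E and S181E were also compared with each other. In arsenite, by edgeR, PSMG2 differed by −0.74 ± 0.12, PSMD5 by −0.71 ± 0.12, PSME4 by −0.64 ± 0.11 and PSMD12 by −0.36 ± 0.10 (log2, Y396E against S181E, SE), with adjusted p between 0.0004 and 0.019. These were 4 members lower (10.0%) and none higher, where 9.22% of all tested genes were lower and 2.59% higher, so the share lower was near that of all genes. Fitting these 6 libraries alone gave 6 lower and 11 higher, where 21.6% of all tested genes were lower and 15.5% higher.

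In control PSMD5, PSME4 and PSMD12 were lower by 0.65, 0.54 and 0.37 on the log2 scale, and PSMC3, PSMD14 and PSMC4 higher by 0.57, 0.49 and 0.43 in Y396E than in S181E. These are 7.5% of the members in each direction, against 6.51% of all tested genes lower, a like share, and 3.6% higher (10.1% in all) by edgeR. Same-numbered libraries deviated together here, and with the replicate number as a block 10 members were higher and 3 lower. TMM on genes not above the parental level left 1 higher and 3 lower, against 0.813 and 11.3% of all tested genes. Total counts gave 7 higher and 2 lower, against 8.04 and 3.97%. Without Y396E replicate 2 the count was 2 lower and none higher, against 1.49 and 0.469% of all tested genes. Without S181E replicate 1 or 3 it was 2 lower and 1 higher, against 3.48 and 1.89% or 2.21 and 1.51%.

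Whether a mutant's difference from wild-type changed with arsenite was tested by the interaction term, and no member was called by edgeR for S181E, Y396E or RQ. Unadjusted p under 0.05 were found for 5, 9 and 4 members, and by edgeR 0.389, 2.85 and 0.0687% of all tested genes were called. These were 0.275, 2.4 and 0.0114% with a negative and 0.114, 0.447 and 0.0572% with a positive interaction. For Y396E the lowest adjusted p was that of PSME3, 0.071, with an interaction of −0.43 ± 0.13 (log2, SE), and PSMD5 had −0.52 ± 0.17 (SE, edgeR adjusted p = 0.10). The count depended on the model. With the replicate number as a block 4 members had a called negative interaction for Y396E and 4 for S181E, where 7.32% and 2.37% of all tested genes did. With total counts it was 4 members for Y396E, where 6.16% of all tested genes had one.

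Within the proteasome genes the Y396E difference in arsenite followed the scaled ratio of a transcript to the parental library. The background ratio was taken from RQ over parental libraries, since these share no library with the Y396E and wild-type groups. Of the 12 members at or above the parental level by this ratio 3 rose and 3 fell with Y396E, with a median log2 fold change of 0.07. Of the 28 members below it 19 rose and none fell, with a median of 0.63. Of all 8734 tested genes 13.1% rose and 19.4% fell. The same split was not made for them, so the 2 groups of members have no like share beside them. Across the 40 members Pearson's r between the log2 ratio and the Y396E log2 fold change was −0.78 and Spearman's rho −0.67. Over 8700 tested genes both were −0.52, so the members lie along a relation that the other genes share. Genes are not independent replicates, and the values share the scaling of the libraries, so these correlations are a description.

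**Figure D3:**
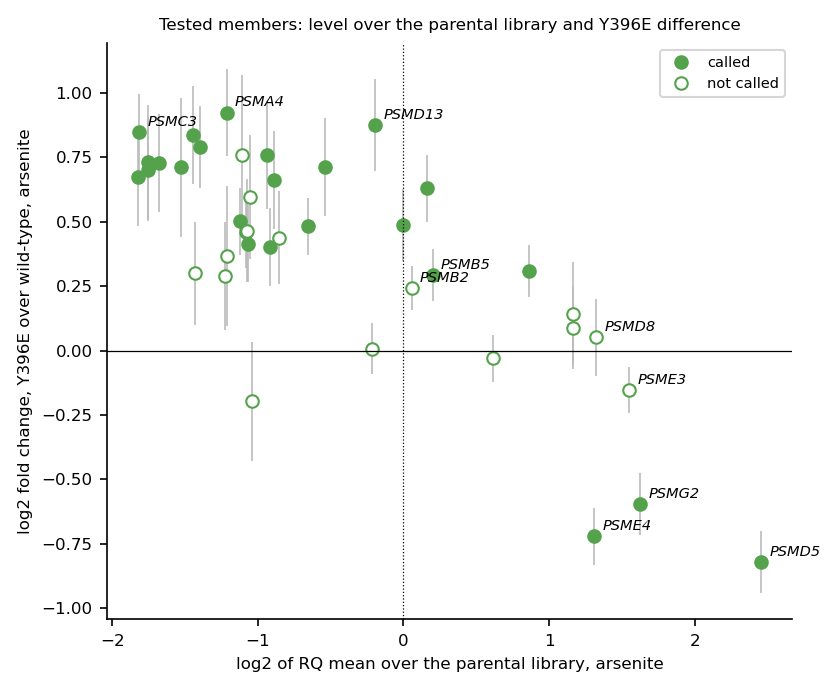
For each of the 40 tested members, the log2 ratio of the RQ mean over the parental library in arsenite (horizontal axis) against the log2 fold change of Y396E over wild-type in arsenite (vertical axis, bars of 1 SE); filled points were called by edgeR and the dotted line marks the parental level. Members to the left of the dotted line lie mostly above 0, and the 3 that fell, PSMD5, PSME4 and PSMG2, are among those farthest to the right.

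For S181E in arsenite r was −0.58 and rho −0.51 over the same 40 members, against −0.33 and −0.34 over all tested genes. In control, over 33 members with a parental count, r was −0.30 for Y396E and 0.07 for S181E. The part of the bead background in the mutant differences was not tested. Parental levels moved beside them in this way: PSMC3 was at 167 CPM in the parental arsenite library, above all mCherry libraries, whereas PSMD5 was at 31.7 CPM, below all of them.

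The members' transcripts were also short. Their canonical transcripts had a median of 1578 nucleotides, of which 847.5 were coding and 375 followed the stop codon, against 3682, 1458 and 1537 for all tested genes. Among the 40 members the log2 length after the stop codon had an r of −0.35 with the Y396E log2 fold change in arsenite, and −0.31 over all tested genes. PSME4, with 7250 nucleotides, and PSMD5, with 3381, are longer than the median member, whereas PSMG2 has 1070 and fell too, and PSMA4, with 4378, rose most. The part of transcript length in the differences was not tested.

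Arsenite changed the proteasome transcripts in every line, and mostly upwards. With wild-type 24 of 40 members (60%) rose and 2 (5.0%) fell by edgeR, where 35.4% of all tested genes rose and 31.8% fell (67.3% in all), with medians of 0.62 for members and 0.03 for all genes. With S181E 28 (70.0%) rose and 2 fell, against 33.3 and 34.6% (67.8% in all) of all genes. With Y396E 29 (72.5%) rose and 2 fell, against 31.3 and 33.8% (65.1% in all). With RQ 17 (42.5%) rose and 2 fell, against 32.4 and 32.3% (64.7% in all), with 2 arsenite libraries. The median of the members was 0.69 with S181E, 0.61 with Y396E and 0.45 with RQ.

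The 19S particle carried most of this rise. With wild-type 15 of its 17 subunits rose, all 6 ATPases among them, against 3 of the 12 tested 20S subunits, and the medians were 0.90 and 0.19. In S181E the counts were 16 of 17 and 6 of 12, in Y396E 16 of 17 and 8 of 12, and in RQ 11 of 17 and 2 of 12. PSMD1, on which the 19S base is built, was at 44.9, 54.2 and 49.9 CPM in wild-type control libraries and at 129, 138 and 151 CPM in arsenite. Its log2 fold change was 1.48 ± 0.11 with wild-type, 1.83 ± 0.11 with S181E, 1.86 ± 0.11 with Y396E and 2.04 ± 0.12 with RQ (SE, edgeR adjusted p between 1.9e-12 and 6.4e-11).

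PSMD2, the other large scaffold of the 19S base, rose from 52.2, 64.8 and 42.9 CPM to 148, 142 and 140 CPM with wild-type, a log2 fold change of 1.42 ± 0.16 (SE, edgeR adjusted p = 6.1e-08). PSMD3 and PSMD13 rose by 1.41 ± 0.20 and 1.4 ± 0.18 with wild-type, and were among the 4 largest rises in Y396E and RQ as well, while in S181E PSME1, a subunit of the interferon-inducible activator, took the fourth place with 1.42 ± 0.21 (SE). PSMD14 rose by 0.96 with wild-type, 0.80 with S181E, 0.53 with Y396E and 0.63 with RQ.

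Activators rose as well, except PSME3. PSME4 went from 131, 109 and 105 CPM to 294, 281 and 272 CPM with wild-type and rose in all 4 lines, by 1.28, 1.03, 0.93 and 1.12 with wild-type, S181E, Y396E and RQ. PSME3 fell by 0.32 ± 0.09 with S181E and 0.36 ± 0.09 with Y396E (SE, edgeR adjusted p = 0.0034 and 0.0014).

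Of the chaperones, PSMD5 rose in all 4 lines and PSMG3 was the 1 member that fell in all 4. PSMG3 was at 22.7, 22.0 and 27.1 CPM in wild-type control and 11.9, 12.6 and 12.7 CPM in arsenite, a log2 fold change of −0.96 ± 0.20 (SE, edgeR adjusted p = 0.0002), with −0.76, −0.51 and −0.68 for S181E, Y396E and RQ. The groups did not overlap with wild-type, as was so downwards for 31.2% of all tested genes.

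The calls of the proteolytic subunits differed in direction. PSMB5 fell with wild-type, from 154, 148 and 158 CPM to 130, 128 and 125 CPM, a log2 fold change of −0.28 ± 0.10 (SE, edgeR adjusted p = 0.018), and was not called in the other lines. PSMB7 rose by 0.51 with wild-type, 0.76 with S181E and 0.73 with Y396E, and PSMB6 rose with Y396E, by 0.55 ± 0.24 (SE, edgeR adjusted p = 0.046). Of 14 alternatives 9 kept the fall of PSMB5 and 6 the rise of PSMB6. The rise of PSMB7 was kept in 10 with wild-type, 14 with S181E and 13 with Y396E. The alpha subunit PSMA7 fell with RQ, by 0.42 ± 0.17 (SE, edgeR adjusted p = 0.034), with libraries that overlapped.

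Near the threshold, PSMG2 had the smallest called rise with wild-type, 0.45, and among the smallest in the other lines were PSMC5 with 0.40 and the beta subunit PSMB4 with 0.45 in S181E, and PSMD7 with 0.46 in RQ. The rises of PSMC5 (0.32) and PSMG2 (0.33) called in Y396E turned to −0.07 and −0.06 with TMM on genes not above the parental level.

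Across the lines 17 of the 40 members (42.5%) rose in all 4, where 25.3% of all tested genes did, and 1 member fell in all 4, where 24.8% did. PSMA1, PSMB2, PSMD10, PSMD12, PSMF1 and PSME3IP1 were called in no line. The 17 were PSMA4, PSMB1, PSMC2, PSMC3, PSMC4, PSMD1, PSMD2, PSMD3, PSMD5, PSMD7, PSMD8, PSMD11, PSMD13, PSMD14, PSME1, PSME2 and PSME4. They thus held 3 of the 6 ATPases and 8 of the 11 other 19S subunits but 2 of the 12 tested 20S subunits.

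**Figure D4:**
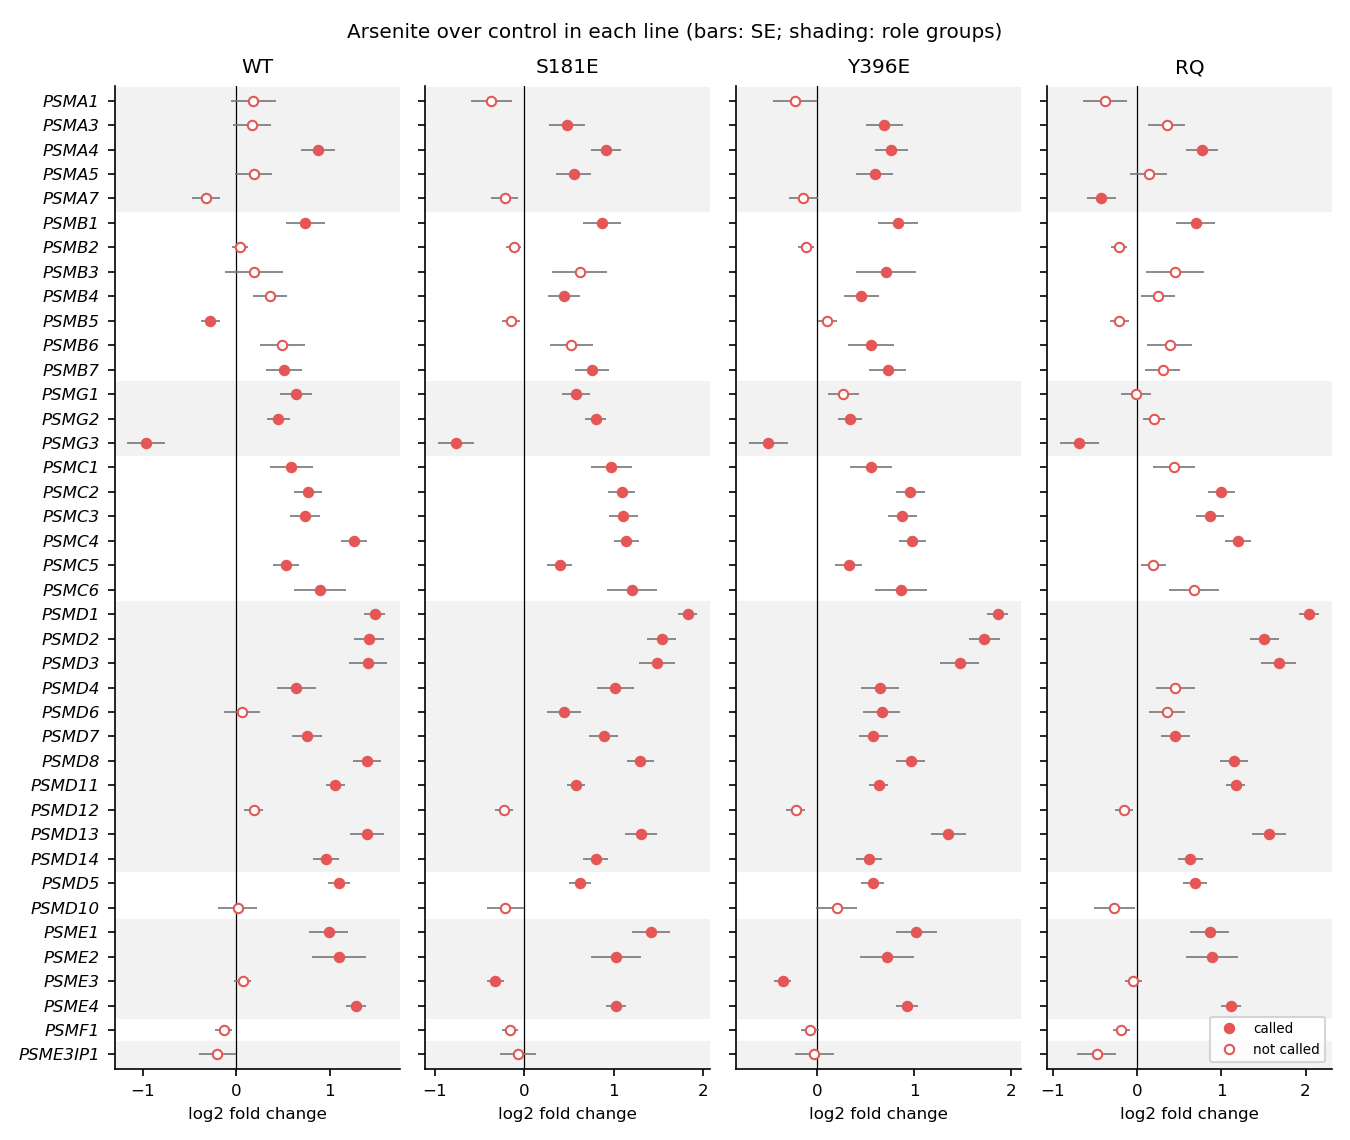
log2 fold changes of arsenite over control (horizontal axes) of the 40 tested members in the wild-type, S181E, Y396E and RQ lines, with bars of 1 SE; filled points were called by edgeR and shading separates the role groups. The 19S subunits PSMD1, PSMD2, PSMD3 and PSMD13 lie farthest to the right in most lines and PSMG3 lies to the left of 0 in all 4.

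The balance of rises and falls moved with the scaling. With TMM on genes not above the parental level the median of all genes became −0.28 with wild-type, −0.38 with S181E, −0.42 with Y396E and −0.30 with RQ, and the medians of the members became 0.32, 0.32, 0.22 and 0.15. The members then rose and fell as 18 and 6 with wild-type, where 22.9% of all tested genes rose and 44.5% fell. With S181E it was 20 and 9, against 19.8 and 49.4%, and with Y396E 12 and 8, against 16.6 and 51.2%. With RQ it was 13 and 9, against 21.7 and 43.6%.

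The parental libraries, which hold no IGF2BP1 fusion, changed with arsenite too. Of 32 tested members with more than 3 parental control counts 21 were higher in the parental arsenite library, with a median ratio of 1.22, against 1.52 for the same members in wild-type. PSMD1 was 3.06-fold higher in the parental and 2.80-fold in the wild-type libraries, and PSMD3 2.7-fold and 2.66-fold. PSMD2 was unlike them, at 395 CPM in the parental control and 394 CPM in the parental arsenite library against a 2.7-fold change with wild-type, and PSME4 was at 0.915-fold in the parental and 2.45-fold in the wild-type libraries. PSMG3 was lower in both, at 0.569-fold and 0.517-fold. With 1 parental library per treatment these ratios have no replicate check, and the part of the background in the arsenite changes was not tested.

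The promoters of the members were searched for 2 motifs. Windows of 300 bases, from 250 before to 50 after the start of a gene, were taken from RefSeq (GRCh38.p14) and matched 44 of the 50 members by symbol. The core of the antioxidant response element bound by NFE2L1 and NFE2L2, TGACNNNGC, was found on either strand in 13 of the 44 windows (29.5%) and in 14.3% of 15345 windows of protein-coding genes. The CCAAT box, CCAAT on either strand, was in 21 of the 44 (47.7%) and in 36.6% of all windows. Of 16 members with a window that rose in all 4 lines 7 held TGACNNNGC, and of the 18 other tested members with a window 4 did. The median log2 fold change of arsenite over control with wild-type was 1.10 for the 11 tested members with this motif and 0.54 for the 23 without. For CCAAT it was 0.19 for the 17 tested members with the motif and 0.99 for the 17 without. These counts are descriptive, and a match of letters is not a site shown to be bound.

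The windows around the motif of the 7 members that rose in all 4 lines are shown because they let the flanks be compared, with the match in capitals and up to 10 bases on each side, read 5′ to 3′ on the strand of the match. PSMD3 holds a pair of matches on opposite strands.
PSMC4: tcctccatagTGACCAAGCcggcctctgt
PSMD1: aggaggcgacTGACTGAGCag
PSMD3: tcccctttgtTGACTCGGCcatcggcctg
PSMD3: ccgcacgaTGACGGAGCagctgcaaac
PSMD5: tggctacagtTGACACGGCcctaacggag
PSME1: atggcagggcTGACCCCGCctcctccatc
PSME2: ccctggactgTGACCCAGCcagcaccgcc
PSME4: gctctgctggTGACGCTGCagccgccggg

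In GRCh38.p14 the stretch of PSMD1 is chr2:231056896-231056916 on the plus strand, with the middle base of its match 43 bases after the annotated start, as distances are counted here. Those of PSMD3 are chr17:39980760-39980788 on the plus strand, 33 bases before the start, and chr17:39980830-39980856 on the minus strand, 37 bases after it. The stretch of PSMC4 is chr19:39971182-39971210 on the minus strand, 31 bases after the start, and that of PSMD5 is chr9:120843038-120843066 on the minus strand, 130 bases before it. The stretches of PSME1, PSME2 and PSME4 lie 82, 171 and 30 bases before their starts, at chr14:24136098-24136126 (plus), chr14:24146767-24146795 (minus) and chr2:53971009-53971037 (plus).

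Of 31 other genes of the ubiquitin-proteasome pathway, taken as subunits outside the symbol pattern, ubiquitin genes, shuttle factors, the p97 segregase and regulators, 29 were tested. In arsenite over control 16 rose and 4 fell with wild-type by edgeR, where 35.4% of all tested genes rose and 31.8% fell. They were led by UBA1, the enzyme that activates ubiquitin, with 2.65 ± 0.11, VCP, the p97 ATPase, with 1.91 ± 0.14, and the shuttle factor UBQLN2 with 1.63 ± 0.15 (log2, SE). Among those that fell were RPS27A, which fuses ubiquitin to a ribosomal protein, by 0.90 ± 0.27, and DDI2, the protease that processes NFE2L1, by 0.82 ± 0.16 (SE).

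With Y396E in arsenite 7 of these 29 genes rose and 5 fell against wild-type, where 13.1% of all tested genes rose and 19.4% fell. POMP, the chaperone that completes the 20S core, rose by 0.87 ± 0.15, UBB, a polyubiquitin gene, by 0.72 ± 0.20 and ADRM1, a ubiquitin receptor of the 19S particle, by 0.66 ± 0.16, and NFE2L2, TXNL1 and RAD23B fell by 0.73 ± 0.11, 0.61 ± 0.16 and 0.59 ± 0.09 (log2, SE). In control 7 rose and none fell, where 16.2% of all tested genes rose and 12.7% fell, among them UFD1 and UBA1 at 0.47 and 0.43. With S181E 3 rose in control, USP14, UBE3C and NPLOC4, a share near the 12.8% of all tested genes, and 1 in arsenite, POMP, where 2.2% of all tested genes rose. The 1 interaction called was that of NPLOC4 for Y396E, −0.52 ± 0.14 (SE, edgeR adjusted p = 0.046).

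Loci that resemble the members added little. The 44 pseudogenes with symbols of this family held between 0 and 0.125% of the members' counts in a library and none had a mean above 1 CPM, though reads that fit several places were left out before counting. The antisense RNA PSMA3-AS1 had a mean of 6.99 CPM over the mCherry libraries and 26.5 CPM in the parental arsenite library.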

How the data were processed

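RIP-seq of mCherry-IGF2BP1 was measured in 23 libraries of HCT116 cells and of parental cells in 2. The authors aligned reads to hg38 with STAR 2.7.11b (GENCODE annotation, mismatches limited) and deposited raw counts per gene from featureCounts of Subread 2.0.6, stranded and over exons. Reads that map to several places or overlap several genes were left out, which lowers genes with copies or overlapping neighbours. Symbols came from another GENCODE release by Ensembl identifier, which matched 62541 of 63086 genes. The members, lists and motifs were chosen with earlier results of these data known.

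With edgeR 4.0.16 in R 4.3.3, protein-coding genes were kept where over 11.5 of 23 libraries exceeded 10 CPM and were fitted with TMM scaling in a model of 8 groups, and a gene was called at a quasi-likelihood adjusted p under 0.05 with over 20% change. CPM printed use TMM factors over all 25 libraries. The fit was tested on simulated data, and no libraries were identical. Alternatives covered DESeq2 1.42.0, other scalings, filters, models and libraries left out. Parental counts of 0 were set to a floor of 3 counts, and such floors cover counting error only. Named in each comparison were all called members if at most 8, otherwise the 4 lowest and 4 highest. PSMB5 to PSMB10, PSMD14, PSME4 and PSMC3IP were set to be named in the report whatever their values, but not in every comparison. Some genes of the pathway list are not reported here by name. PSME3IP1 was placed in its role group after its values were seen.

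Same-numbered libraries were checked for pairing by the correlation of their deviations from group means. All 3 correlations were over 0.1 for S181E and wild-type in arsenite (0.28 to 0.39) and for Y396E and S181E in control (0.12 to 0.56). Libraries with different numbers were not compared, so this check cannot show that the numbers pair the libraries. Neither labels nor methods name a shared batch.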

Additional observations from a re-analysis of the deposited data

How the results depend on the processing

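The alternatives were set for 15 comparisons of the members and 2 counts over the parental library. Replicate block: with the replicate number in the model of all libraries, the number of members called moved from 4 to 10 (S181E against wild-type, arsenite), from 6 to 13 and from 4 to 7 (Y396E against S181E, control and arsenite), from 2 to 5 and from 0 to 1 (RQ against wild-type, control and arsenite), and from 0 to 4 for the S181E and the Y396E interaction. It ended none of the 179 calls of members. Outside the pairs named in the methods, same-numbered libraries correlated between −0.12 and 0.45. When the model held no other groups than those compared, the number called was 2 for S181E and 12 for Y396E against wild-type in control, 24 for S181E in arsenite, 0 and 3 for RQ in control and arsenite, and 17 for Y396E against S181E in arsenite. In this order, lower and higher, these were 0 and 2, 1 and 11, 0 and 24, 0 and 0, 2 and 1, and 6 and 11. Of all tested genes 2.63 and 1.96%, 7.83 and 6.18%, 11.8 and 9.74%, 0.0343 and 0.0458%, 6.27 and 5.43%, and 21.6 and 15.5% were called. With the block in these fits the number called was 6 for S181E in control, 24 for S181E in arsenite, 1 and 3 for RQ, 20 and 18 for Y396E against S181E in control and arsenite, and 3 for the Y396E interaction. In this order, lower and higher, these were 0 and 6, 0 and 24, 1 and 0, 2 and 1, 4 and 16, 7 and 11, and 3 and 0. Of all tested genes 6.51 and 6.41%, 13.1 and 11.4%, 2.35 and 1.79%, 7.19 and 5.77%, 14.1 and 12.9%, 22.4 and 16.7%, and 5.1 and 1.57% were called. Total counts gave 4 for RQ in control, 11 for S181E in arsenite and 4 for the Y396E interaction. In this order, lower and higher, these were 1 and 3, 0 and 11, and 4 and 0. Of all tested genes 1.91 and 8.75%, 3.24 and 9.93%, and 6.16 and 0.401% were called. TMM on genes not above the parental level gave 0 for S181E and 14 for Y396E against wild-type in arsenite and 20 for arsenite over control in Y396E. In this order, lower and higher, these were 0 and 0, 5 and 9, and 8 and 12. Of all tested genes 5.87 and 0.756%, 34.9 and 2.84%, and 51.2 and 16.6% were called. With this scaling PSMC5 turned to −0.07 and PSMG2 to −0.06 for arsenite over control in Y396E. They were the 2 reversals among 2487 values of called members, of which 2154 kept their call and 331 lost it in the same direction. DESeq2's Wald test gave 11 for Y396E against S181E in control, and 1 for RQ in arsenite and for the Y396E interaction. In this order, lower and higher, these were 3 and 8, 1 and 0, and 0 and 1. Of all tested genes 9.24 and 5.43%, 0.87 and 0.458%, and 2.87 and 1.51% were called. The filter filterByExpr, with 48 members tested, gave 2 that rose for S181E in arsenite, where 1.35% of all genes tested with it rose and 3.26% fell. The cause of these changes was not tested.

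Without each library in turn the number called ran from 6 to 13 for S181E and 12 to 25 for Y396E against wild-type in control, 1 to 5 for RQ in control, 0 to 2 for S181E and 16 to 21 for Y396E in arsenite, 2 to 5 for Y396E against S181E in control, and 0 to 1 for the Y396E interaction, where wild-type control replicate 3 gave the 1 call. Of all tested genes 6.25 to 8.58% were lower and 8.85 to 13.4% higher for S181E in control. For Y396E in control it was 8.99 to 13.8% and 10.6 to 16.5%, and for RQ 1.36 to 4.55% and 2.07 to 5.2%. In arsenite it was 3.05 to 4.1% and 1.01 to 1.36% for S181E, and 14.7 to 17.7% and 8.14 to 9.81% for Y396E. Y396E against S181E in control gave 1.49 to 9.27% and 0.469 to 4.9%. The Y396E interaction gave 0.893 to 3.72% and 0.195 to 0.847%. Over the parental library, 16 members passed 2-fold and 5 passed 8-fold in control, 0 passed 4-fold against the parental arsenite library, and in arsenite 7 passed 2-fold and 0 passed 8-fold. For these settings the shares of all genes were not computed. The other numbers stayed within 1.5 times of those in the report. For the RQ comparisons in arsenite 2 libraries limit what can be called, and the parental control library, at 0.675 CPM per count, limits every ratio in control.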
